A study of Mus musculus with 38 samples.

Results

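The genes followed here make, block or receive the signals by which cells of bone form osteoclasts, the cells that resorb bone. The list named 7 genes, Tnfsf11, Tnfrsf11b, Tnfrsf11a, Csf1, Il34, Pthlh and Pth1r, and was matched by gene symbol to the table of RPKM values (read counts scaled for transcript length and for library size). The table holds 13260 genes, 6 of the 7 are among them, and Tnfrsf11a was not analysed here. Libraries were made from 100 sorted cells each, in 8 groups and 38 libraries.

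All mice were of the strain C57Bl/KaLwRijHsd and were 8 to 10 weeks old when they received PBS or 1000000 5TGM1-GFP cells by the intravenous route. 5TGM1-GFP cells are mouse myeloma cells marked with green fluorescent protein (GFP), the mice had no other treatment, and the experiment ended at day 23. Mice given PBS are called healthy and those given 5TGM1-GFP cells myeloma-bearing. Cells of the bone lining were released from hindlimb bones with collagenase and sorted as osteoprogenitors (ALCAM+Sca1-, 4 libraries from healthy and 4 from myeloma-bearing mice), stromal progenitors (Sca1+ALCAM-, 5 and 5) and endothelial cells (CD31+, 5 and 5). Myeloma cells were sorted by their GFP from the bone lining (5 libraries) and from the central marrow (5). These cells are 1 transplanted line, so they stand for 1 tumour in several hosts. Libraries are named by the letter in their code, and the labels do not tie a letter to an animal.

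Reads on genes were 11991647 to 21789966 per library in osteoprogenitors, 17269127 to 34883291 in stromal progenitors, 12638287 to 30556601 in endothelial cells and 9735031 to 17972882 in myeloma cells. The labelled cell types carried their markers. The sum of 7 endothelial markers ran from 2057 to 4384 RPKM in endothelial cells and reached no more than 29.7 RPKM in osteoprogenitors and stromal progenitors. The sum of 10 osteoprogenitor markers, among them Bglap, Col1a1 and Ibsp, was 10356 to 69519 RPKM in osteoprogenitors and 938 to 3361 RPKM in stromal progenitors. The sum of 6 stromal markers was higher in endothelial cells (2724 to 8974 RPKM) than in stromal progenitors (1105 to 3112 RPKM). It includes Ly6a, the gene of the sorting antigen Sca1, which stood at 2195 to 8769 RPKM in endothelial cells. In stromal progenitors, 2 libraries stood apart by neutrophil transcripts: the sum of the 5 neutrophil markers in the table was 7273 RPKM in healthy replicate L and 8119 RPKM in myeloma-bearing replicate E, against at most 292 RPKM in the other stromal progenitor libraries.

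RANKL, the product of Tnfsf11, binds the receptor RANK on osteoclast precursors and drives them to become osteoclasts, while osteoprotegerin (OPG), the product of Tnfrsf11b, is a secreted decoy that captures RANKL. CSF1 and IL-34 are alternative ligands of the CSF1 receptor, on which osteoclast precursors depend for survival. Parathyroid hormone-related protein (Pthlh) and parathyroid hormone act on the receptor Pth1r of osteoblast lineage cells, a route known to raise RANKL and to lower OPG.

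Tnfsf11 lies on chromosome 14 at 78277445 to 78308043 on the minus strand, Tnfrsf11b on chromosome 15 at 54250619 to 54278484 on the minus strand and Csf1 on chromosome 3 at 107741048 to 107760469 on the minus strand. Pthlh lies on chromosome 6 at 147252101 to 147264183, Il34 on chromosome 8 at 110741829 to 110805924 and Pth1r on chromosome 9 at 110722085 to 110747145, all on the minus strand. Positions are those of the GENCODE annotation of GRCm38, the build of the deposited table. The span of Pth1r overlaps Myl3, and that of Il34 overlaps Gm15894 and Gm15895, on the opposite strand. SmartSeq2 does not mark strand, so reads in the shared stretches cannot be assigned by strand.

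The 250 bases before the start of Tnfsf11 and of Csf1 are shown because these genes encode the pair of ligands that osteoclast formation needs. The sequences are from RefSeq on GRCm38.p6, at chr14:78308044-78308293 and chr3:107760470-107760719, both on the minus strand, 5′ to 3′ in the direction of transcription. Capitals mark matches to TATAA, the core of the TATA box, read on either strand, where matches to the same letters on opposite strands may overlap.
Tnfsf11 promoter: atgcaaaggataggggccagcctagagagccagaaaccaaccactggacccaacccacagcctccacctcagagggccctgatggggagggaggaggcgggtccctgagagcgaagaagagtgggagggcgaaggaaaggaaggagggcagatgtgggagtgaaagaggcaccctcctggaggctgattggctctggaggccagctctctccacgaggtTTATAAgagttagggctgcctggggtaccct
Csf1 promoter: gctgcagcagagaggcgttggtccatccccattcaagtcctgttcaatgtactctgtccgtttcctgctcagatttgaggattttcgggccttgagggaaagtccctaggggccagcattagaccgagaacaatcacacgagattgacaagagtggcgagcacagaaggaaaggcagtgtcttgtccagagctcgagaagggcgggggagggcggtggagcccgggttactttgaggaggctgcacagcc
The Tnfsf11 window held 2 overlapping matches that began 31 and 30 bases before the start, and the Csf1 window held none. Of 32851 promoter windows of this length, 22.8% held TATAA on either strand. The RUNX core TGTGGT, found in 14.05% of all windows, and the cAMP response element core TGACG, found in 17.8%, were searched on both strands too and matched neither window. GC content was 60.4% before Tnfsf11 and 56.4% before Csf1.

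Tnfsf11, the RANKL gene, was read in osteoprogenitors and in some stromal progenitor libraries and was near or at 0 elsewhere. In osteoprogenitors of healthy mice it stood at 6.45 (replicate L), 0 (M), 3.65 (N) and 0 (O) RPKM. In osteoprogenitors of myeloma-bearing mice it stood at 27.0 (D), 33.0 (G), 5.88 (I) and 19.7 (J) RPKM. In myeloma-bearing mice 3 of the 4 libraries were above every healthy library, and replicate I fell below healthy replicate L, so that the groups overlapped. The mean was 21.4 ± 11.7 RPKM with myeloma and 2.52 ± 3.13 RPKM without (SD, n = 4 each). On log2(RPKM + 1), a scale that understates the change of low genes, the difference was 2.98 with a standard error of 1.00, and it did not pass the test across genes in limma (adjusted p = 0.981). With all 38 libraries in the fit, which then share 1 estimate of the spread, the same difference passed (adjusted p = 0.0852), and with voom-limma on the recovered reads of all 38 libraries it did not (5.96, adjusted p = 0.179). The shared estimate included 9 of 10 endothelial and all 10 myeloma libraries at 0 reads of Tnfsf11, which add almost no spread. In a sort of 100 cells, fewer cells that make a transcript and less transcript per cell cannot be told apart.

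The sum of osteoprogenitor markers stood beside this at 21187, 10356, 27369 and 57455 RPKM in healthy replicates L, M, N and O, and at 69519, 38661, 45772 and 33597 RPKM in myeloma-bearing replicates D, G, I and J. All 4 myeloma-bearing libraries were thus above healthy replicates L, M and N, while replicate O, with the highest healthy sum, had no Tnfsf11 read. The part of these markers in the result was not tested. T cells, which can also make RANKL, carry CD45, and CD45+ cells were gated out of the sort. Of 6 T cell markers 1 was in the table, Lck, at 0 (L), 19.05 (M), 0.564 (N) and 6.89 (O) RPKM in healthy and at 0 (D), 0 (G), 10.01 (I) and 0 (J) RPKM in myeloma-bearing mice, and 1 marker does not test for these cells.

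In stromal progenitors of healthy mice, Tnfsf11 was at 0 in 4 libraries and at 0.0205 RPKM, a single read, in replicate N. In myeloma-bearing mice it stood at 16.1 (D), 0 (E), 0.0268 (G), 25.6 (I) and 0.986 (J) RPKM. Thus 2 of 5 libraries held it at the level of osteoprogenitors and the other three did not. Only these 2 of the 10 libraries exceeded 1 RPKM, so that the gene did not pass the filter on low values and was not tested in this comparison. The difference on log2(RPKM + 1) was 1.97, and its adjusted p was 0.887 without the filter and 0.324 with all 38 libraries in the fit. Voom-limma on the recovered reads of all 38 libraries scaled by library totals gave 5.61 and an adjusted p of 0.0986, under the threshold of 0.1, but with library totals scaled by the trimmed mean of M values (TMM) it gave 5.63 and did not pass (adjusted p = 0.105). Osteoprogenitor markers summed to 3361 RPKM in replicate D and 2008 RPKM in replicate I, against 1950 to 2979 RPKM in the healthy libraries, and Dmp1 and Phex, the osteocyte markers in the table, summed to 111.8 RPKM in replicate J and to at most 1.06 RPKM in the other myeloma-bearing libraries. The part of these transcripts in the result was not tested. Lck was at most 0.0808 RPKM in healthy and 0.0349 RPKM in myeloma-bearing stromal progenitor libraries. The change in osteoprogenitors minus that in stromal progenitors was 1.02 (SE 1.41, adjusted p = 0.9995), so the 2 changes were not shown to differ.

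Endothelial cells gave 4 reads of Tnfsf11 in 1 of 10 libraries, 0.102 RPKM, and none in the rest. Myeloma cells gave 0 reads in all 10 libraries, which allows up to 0.0496 to 0.1005 RPKM per library at a limit of 3 reads. These limits allow for counting error alone, as the protocol has no molecular identifiers to set PCR copies apart.

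**Figure D1:**
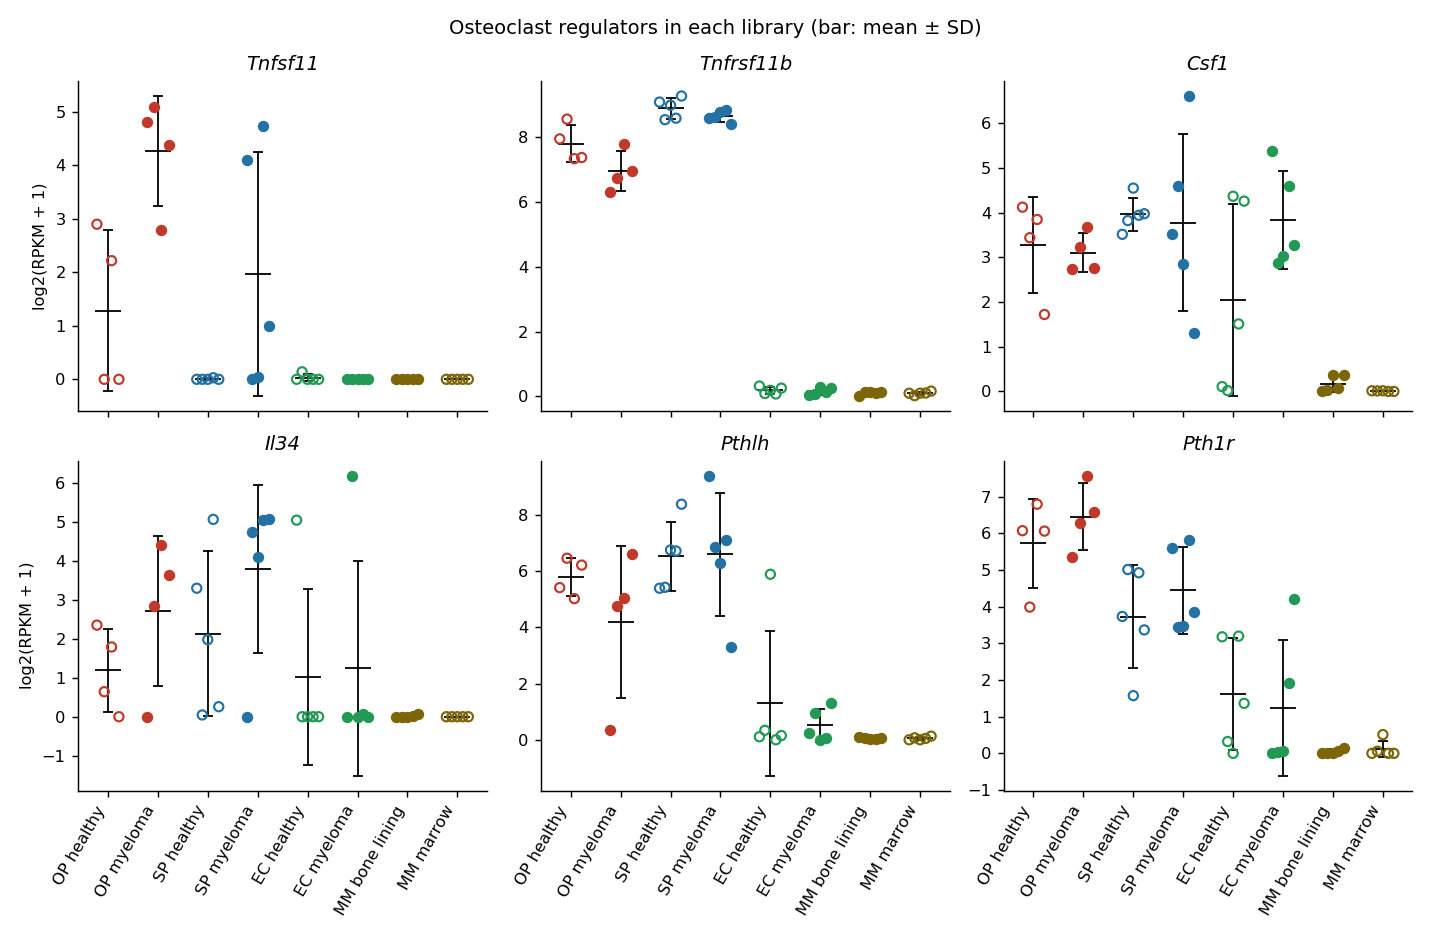
The level of each of the 6 genes, as log2(RPKM + 1), in every library (circles; open for healthy mice and central marrow, filled for myeloma-bearing mice and bone lining) with the mean and SD of each group (bars), for osteoprogenitors (OP), stromal progenitors (SP), endothelial cells (EC) and myeloma cells (MM). Tnfrsf11b was high in every OP and SP library, whereas Il34 ran from 0 to 71.1 RPKM in EC and Tnfsf11 from 0 to 25.6 RPKM in SP of myeloma-bearing mice, and MM were at or near 0 for all 6 genes.

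Tnfrsf11b, the gene of the decoy OPG, was high in every osteoprogenitor and stromal progenitor library. Osteoprogenitors of healthy mice held it at 246 (L), 377 (M), 161 (N) and 165 (O) RPKM. Osteoprogenitors of myeloma-bearing mice held it at 78.3 (D), 107 (G), 220 (I) and 123 (J) RPKM. In myeloma-bearing mice 3 of the 4 libraries lay below every healthy library, and replicate I lay among them. The means were 132 ± 61.4 RPKM (SD, n = 4) and 237 ± 101 RPKM (SD, n = 4), a log2 difference of -0.86 (SE 0.43) that did not pass the test (adjusted p = 0.981).

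Stromal progenitors held more Tnfrsf11b than osteoprogenitors. In healthy mice their libraries stood at 544 (C), 373 (L), 508 (M), 385 (N) and 619 (O) RPKM. In myeloma-bearing mice they stood at 383 (D), 394 (E), 442 (G), 460 (I) and 339 (J) RPKM. The 2 groups overlapped in part: healthy replicates C, M and O lay above every myeloma-bearing library, and healthy L and N lay among them. The means were 486 ± 106 and 404 ± 48.5 RPKM (SD, n = 5 each), with a log2 difference of -0.25 (SE 0.30, adjusted p = 0.990). Tnfrsf11b did not exceed 0.25 RPKM in any endothelial library, where it rested on 1 to 18 reads, or 0.12 RPKM in any myeloma library, where it rested on 1 to 7 reads.

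Since RANKL acts only as far as OPG leaves it free, the ratio of Tnfsf11 to Tnfrsf11b was formed within each library, as log2 of (Tnfsf11 + 1) over (Tnfrsf11b + 1) in RPKM. The authors had already reported this ratio from RNA-Seq as raised in osteoblasts of myeloma-bearing mice. It was chosen with that result known, so its test in osteoprogenitors is not independent of it. In osteoprogenitors of healthy mice the log2 ratio was -5.05 (L), -8.56 (M), -5.12 (N) and -7.38 (O). In osteoprogenitors of myeloma-bearing mice it was -1.50 (D), -1.67 (G), -5.01 (I) and -2.59 (J). All 4 myeloma-bearing libraries lay above all 4 healthy ones, but the margin of replicate I (-5.01) over healthy replicate L (-5.05) was slight. The means were -2.69 ± 1.62 and -6.53 ± 1.73 (SD, n = 4 each), a difference of 3.84 with p = 0.0286 by a two-sided exact permutation test, the smallest p that 70 arrangements allow, and 0.0476 after adjustment over the 2 cell types. Without a pseudocount, Tnfrsf11b exceeded Tnfsf11 in every osteoprogenitor library, 2.90-fold to 37.4-fold in myeloma-bearing mice and 38.2-fold and 44.2-fold in the 2 healthy libraries that had Tnfsf11 reads.

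In stromal progenitors the log2 ratio was -9.09 (C), -8.55 (L), -8.99 (M), -8.56 (N) and -9.28 (O) in healthy mice. It was -4.49 (D), -8.63 (E), -8.75 (G), -4.12 (I) and -7.42 (J) in myeloma-bearing mice. Replicates D, I and J were above every healthy library and replicates E and G were within the healthy range. The means were -6.68 ± 2.24 and -8.89 ± 0.33 (SD, n = 5 each), a difference of 2.21 with p = 0.0476 by the same exact permutation test, of which the smallest possible p is 0.00794, and 0.0476 after adjustment. With a pseudocount of 0.1 in place of 1 the difference was 4.02 in stromal progenitors and 5.54 in osteoprogenitors. Each difference kept its sign without any 1 library, and p then ran from 0.0286 to 0.0571 in osteoprogenitors and from 0.0238 to 0.111 in stromal progenitors, by exact permutation tests that could reach 0.0286 (35 arrangements) and 0.00794 (126 arrangements).

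**Figure D2:**
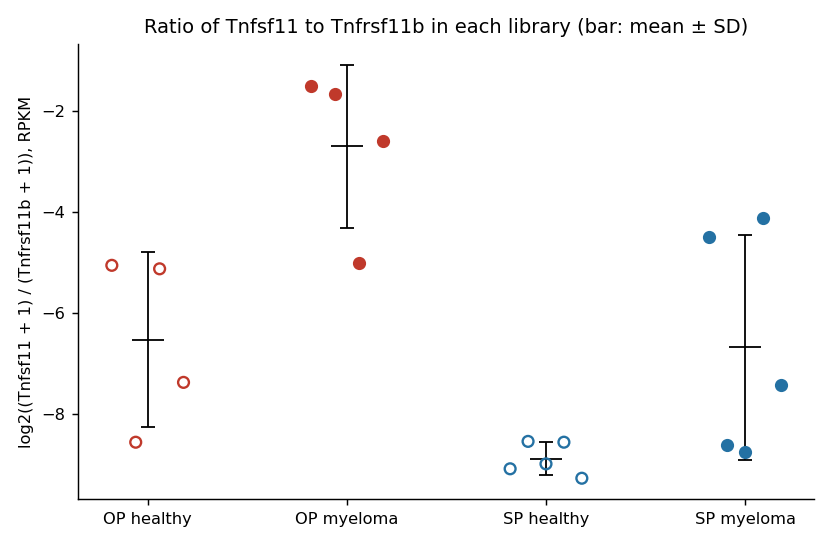
The log2 ratio of Tnfsf11 to Tnfrsf11b (each in RPKM plus 1) in every library of osteoprogenitors (OP) and stromal progenitors (SP), open for healthy and filled for myeloma-bearing mice, with the mean and SD (bars). The 4 OP libraries of myeloma-bearing mice lie above the 4 healthy ones, 1 of them at -5.01 just above the highest healthy value of -5.05, and 3 of 5 SP libraries of myeloma-bearing mice lie above the healthy range.

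Csf1, the gene of the main CSF1 receptor ligand, was read in every library of the 3 bone-lining cell types. In endothelial cells of healthy mice it stood at 0.0784 (C), 0.0129 (L), 19.7 (M), 1.85 (N) and 18.2 (O) RPKM. In those of myeloma-bearing mice it stood at 40.6 (D), 6.32 (E), 7.19 (G), 23.4 (I) and 8.69 (J) RPKM. All 5 libraries of myeloma-bearing mice held Csf1 above 6 RPKM, whereas 2 healthy libraries had 6 reads or fewer and 2 others lay among the myeloma-bearing values. The difference was 1.78 on the log2 scale (SE 1.21) and did not pass the test (adjusted p = 0.943). It was 3.77 with voom-limma on the recovered reads (adjusted p = 0.766) and 3.78 with those of all 38 libraries (adjusted p = 0.179).

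In osteoprogenitors Csf1 stood at 16.5 (L), 9.87 (M), 13.4 (N) and 2.30 (O) RPKM in healthy mice and at 5.73 (D), 8.46 (G), 11.8 (I) and 5.83 (J) RPKM in myeloma-bearing mice. The myeloma-bearing libraries lay within the healthy range (log2 difference -0.17, SE 0.86, adjusted p = 0.998). In stromal progenitors Csf1 stood at 10.4 (C), 13.2 (L), 22.5 (M), 14.4 (N) and 14.8 (O) RPKM in healthy mice, and at 10.4 (D), 23.2 (E), 6.27 (G), 96.9 (I) and 1.47 (J) RPKM in myeloma-bearing mice. The healthy libraries were close together and the myeloma-bearing ones spread to either side of them, with a log2 difference of -0.18 (SE 0.89, adjusted p = 0.999). Replicate I, with the highest Csf1, was also the stromal progenitor library with the most Tnfsf11. Myeloma cells held at most 0.289 RPKM.

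Il34, the gene of the other CSF1 receptor ligand, was present in some libraries of a group and absent in others. In osteoprogenitors it stood at 4.09 (L), 0.56 (M), 2.45 (N) and 0 (O) RPKM in healthy mice and at 0 (D), 6.15 (G), 20.1 (I) and 11.4 (J) RPKM in myeloma-bearing mice. In stromal progenitors it stood at 8.80 (C), 0.0319 (L), 2.93 (M), 32.3 (N) and 0.195 (O) RPKM in healthy mice and at 0 (D), 25.8 (E), 16.1 (G), 31.7 (I) and 32.6 (J) RPKM in myeloma-bearing mice. In osteoprogenitors 3 of 4 myeloma-bearing libraries were above every healthy one, and in stromal progenitors 4 of 5 were above all healthy libraries but N, and J was above N too. Replicate D was at 0 in both cell types. The log2 differences of 1.52 (SE 1.05, adjusted p = 0.981) and 1.66 (SE 1.19, adjusted p = 0.975) did not pass the test. In endothelial cells 2 of 10 libraries held Il34, healthy replicate C at 31.9 RPKM (1014 reads) and myeloma-bearing replicate E at 71.1 RPKM (2351 reads), and the other eight had at most 1 read. The sum of 5 osteoclast markers was 201 RPKM in myeloma-bearing replicate E and 1.59 RPKM in healthy replicate C, against 141 RPKM in healthy replicate O, where Il34 was at 0, and at most 6.34 RPKM in the other endothelial libraries. The sums of 201 and 141 RPKM were almost all Ctsk, which reached 193 RPKM in myeloma-bearing and 141 RPKM in healthy endothelial libraries. Acp5, Mmp9 and Atp6v0d2 were at most 0.126, 0.00923 and 0.0214 RPKM in the myeloma-bearing ones. Ctsk was also read in every osteoprogenitor and stromal progenitor library. The part of these transcripts in the Il34 values was not tested.

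Pthlh, the gene of PTHrP, was read in every osteoprogenitor and stromal progenitor library. In osteoprogenitors it stood at 41.5 (L), 86.9 (M), 31.4 (N) and 73.1 (O) RPKM in healthy mice and at 0.261 (D), 26.1 (G), 31.97 (I) and 96.1 (J) RPKM in myeloma-bearing mice. Replicates D, with 4 reads, and G were below every healthy library and replicate J was above every one, and the log2 difference was -1.59 (SE 1.03, adjusted p = 0.981), or -0.31 without replicate D and -2.39 without replicate J. In stromal progenitors it stood at 40.9 (C), 41.9 (L), 107 (M), 104 (N) and 332 (O) RPKM in healthy mice and at 667 (D), 115 (E), 77.9 (G), 137 (I) and 8.85 (J) RPKM in myeloma-bearing mice, with a log2 difference of 0.06 (SE 0.85). Replicate D thus gave the highest Pthlh of the stromal progenitors and the lowest of the osteoprogenitors. Endothelial cells had 58.2 RPKM in healthy replicate M (2058 reads) and at most 1.46 RPKM in the other libraries.

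Pth1r, the receptor for both PTH and PTHrP, was highest in osteoprogenitors. It stood there at 66.5 (L), 14.9 (M), 110.3 (N) and 66.0 (O) RPKM in healthy mice and at 39.9 (D), 76.8 (G), 189 (I) and 95.9 (J) RPKM in myeloma-bearing mice. The groups overlapped (log2 difference 0.72, SE 0.64, adjusted p = 0.993). In stromal progenitors it ran from 1.98 to 31.4 RPKM (median 12.3) in healthy and from 9.83 to 55.6 RPKM (median 13.6) in myeloma-bearing mice, with the same log2 difference of 0.72 (SE 0.83). In endothelial cells 5 of 10 libraries exceeded 1 RPKM. The highest of them, 17.6 RPKM in myeloma-bearing replicate J, was also the endothelial library with the highest sum of osteoprogenitor markers (655 RPKM, against 17.4 to 363 RPKM in the others), and the part of those markers in the value was not tested.

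Thus no member passed the test for a difference between myeloma-bearing and healthy mice: 0 of 6 tested in osteoprogenitors, where 0.0115% of 8664 genes did, 0 of 5 tested in stromal progenitors, where 0% of 8747 genes did, and 0 of 2 tested in endothelial cells, where 0% of 7880 genes did. At an unadjusted limma p below 0.05 there was 1 member in osteoprogenitors, Tnfsf11, and 0 in the other cell types, where 4.87% of all genes tested in osteoprogenitors, 5% in stromal progenitors, 5.25% in endothelial cells and 5.98% in myeloma cells were below it. By voom-limma on recovered reads, with the libraries of each comparison, 0 members passed too. In no cell type did the groups of a member separate without overlap in RPKM, which 2.65% of genes tested in osteoprogenitors, 0.697% in stromal progenitors and 0.914% in endothelial cells did. For myeloma cells in bone lining against central marrow no member was tested, since none exceeded 1 RPKM in any library of myeloma cells, while 0.203% of 8857 genes passed.

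**Figure D3:**
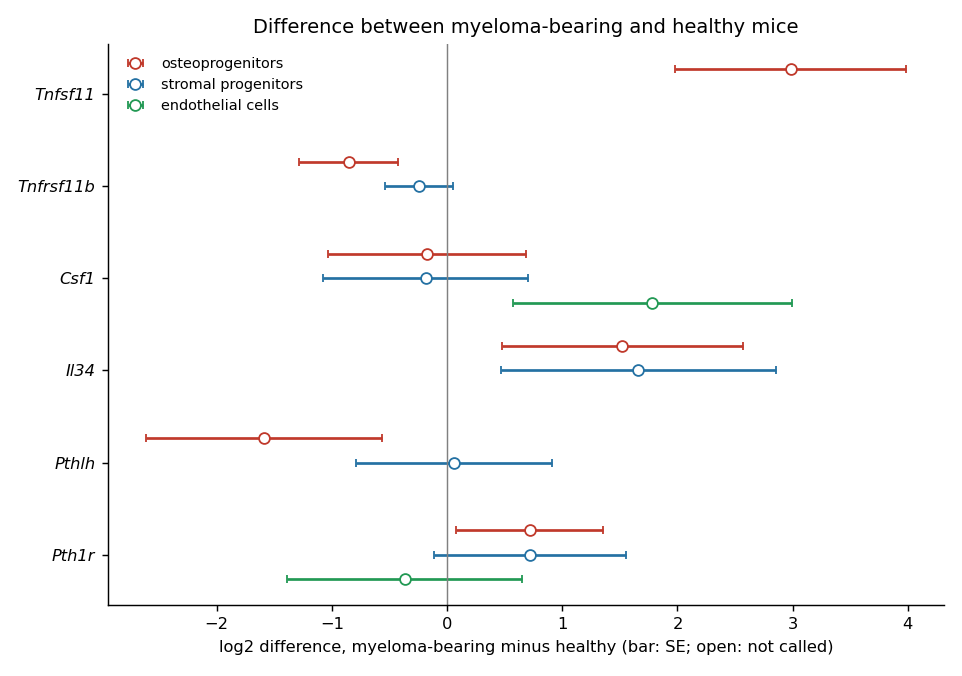
The log2 difference between myeloma-bearing and healthy mice (circles, on log2(RPKM + 1)) with its standard error (bars) for each gene tested in osteoprogenitors, stromal progenitors and endothelial cells. All circles are open because no difference passed the test; the largest was that of Tnfsf11 in osteoprogenitors, 2.98 with a standard error of 1.00.

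The cell types were also compared with each other. For these comparisons healthy and myeloma-bearing groups were given equal weight and all 38 libraries entered the fit. The order of mean levels of Tnfsf11 was osteoprogenitors (11.95 ± 12.8 RPKM, SD, n = 8), stromal progenitors (4.28 ± 9.03, n = 10), endothelial cells (0.0102 ± 0.0322, n = 10) and myeloma cells (0, n = 10). That of Tnfrsf11b was stromal progenitors (445 ± 88.7), osteoprogenitors (185 ± 95.7), endothelial cells (0.127 ± 0.0795) and myeloma cells (0.0735 ± 0.0356). For both genes the endothelial and myeloma levels were not shown to differ (adjusted p = 1.00 for Tnfsf11 and 0.897 for Tnfrsf11b).

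Between osteoprogenitors and stromal progenitors 3 of 6 members passed, where 8.48% of 12683 genes did. Tnfsf11 was higher in osteoprogenitors by 1.78 (SE 0.47, adjusted p = 0.0135) and Pth1r by 2.01 (SE 0.58, adjusted p = 0.0278), and 4.9% of all genes tested passed in this direction. Tnfrsf11b was lower in osteoprogenitors (log2 difference -1.396, SE 0.29, adjusted p = 0.0011), and 3.58% of all genes passed in that direction. Pthlh (-1.58, SE 0.73, adjusted p = 0.242), Il34 (-1.001, SE 0.82) and Csf1 (-0.67, SE 0.58) did not pass. In no member were the libraries of the 2 cell types apart without overlap, as in 1.23% of genes. With healthy mice alone in the bone-lining groups, 0 members passed: the log2 difference was -1.09 (adjusted p = 0.188) for Tnfrsf11b and 2.01 (adjusted p = 0.157) for Pth1r, and Tnfsf11 was not tested. Without the libraries of letter G the difference of Tnfsf11 was 1.402 (adjusted p = 0.114), and with only the libraries of the 2 cell types in the fit its adjusted p was 0.174. With a pseudocount of 0.1 that of Pth1r was 0.199, and with myeloma-bearing mice alone 0.137. Without those of letter J the difference of Pthlh was -2.40 and passed (adjusted p = 0.0489).

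Against endothelial cells, osteoprogenitors were higher in 4 of 6 members, where 27.9% of genes passed and 17.5% in this direction: Tnfsf11 by 2.76, Tnfrsf11b by 7.21, Pthlh by 4.08 and Pth1r by 4.66 on the log2 scale (SE 0.29 to 0.73, all adjusted p at most 3.68e-05). Csf1 did not pass (9.23 ± 4.61 against 12.6 ± 12.9 RPKM, log2 difference 0.25, SE 0.58), and Il34 differed by 0.83 (SE 0.82). The libraries of the 2 cell types did not overlap for 1 member, Tnfrsf11b, as for 4.99% of genes. Stromal progenitors were higher than endothelial cells in 4 of 6 members, where 25.5% of genes passed and 15.5% in this direction: Tnfrsf11b by 8.61, Pthlh by 5.66, Pth1r by 2.66 and Il34 by 1.83 (SE 0.78, adjusted p = 0.0900). The last rests on libraries that run from 0 upwards in both cell types, and its adjusted p was 0.161 to 0.272 without the libraries of letter G, I, J, M or N, 0.103 with median-of-ratios scaling, 0.1999 with only the libraries of the 2 cell types and 0.426 with healthy mice alone. Tnfsf11 differed by 0.97 (SE 0.45, adjusted p = 0.121) and Csf1 by 0.93 (SE 0.55, adjusted p = 0.256). Neither passed, but Tnfsf11 did with a pseudocount of 0.1 (adjusted p = 0.0906), with voom-limma (2.38, adjusted p = 0.0779), with myeloma-bearing mice alone (1.97, adjusted p = 0.0463) and without the libraries of letter E or G (1.22 each, adjusted p = 0.0653 and 0.0646), and Csf1 did with healthy mice alone (1.91, adjusted p = 0.0571). Tnfrsf11b was again the 1 member without overlap, as 3.59% of genes were.

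Myeloma cells were the lowest of the 4 cell types for each of the 6 genes. All 6 members were higher in osteoprogenitors, where 40% of genes passed and 20.1% in this direction, and 5 of 6 were higher in stromal progenitors, where 41.9% passed and 19.3% in this direction. The libraries did not overlap for 4 of 6 members in either comparison (Tnfrsf11b, Csf1, Pthlh and Pth1r), as for 15.5% and 13.1% of genes. The differences from osteoprogenitors ran from 1.95 for Il34 (SE 0.82, adjusted p = 0.0614) to 7.28 for Tnfrsf11b (SE 0.29), and that of Il34 had an adjusted p of 0.112 to 0.184 without the libraries of letter G, I, J or L and of 0.280 with healthy mice alone. The exception in stromal progenitors was Tnfsf11, at 0.99 (SE 0.45, adjusted p = 0.0758), just under the required log2 difference of 1. It passed with a pseudocount of 0.1 (1.94, adjusted p = 0.0448), with voom-limma (2.20, adjusted p = 0.0565), with myeloma-bearing mice alone (1.97, adjusted p = 0.00978) and without the libraries of letter E, G or J (1.11 to 1.24, adjusted p at most 0.0926). Endothelial cells were higher than myeloma cells in 2 members, Csf1 by 2.86 (SE 0.55, adjusted p = 5.76e-05) and Pth1r by 1.35 (SE 0.55, adjusted p = 0.0471), where 43.2% of genes passed and 16.9% in this direction, and that of Pth1r had an adjusted p of 0.103 to 0.193 without the libraries of letter C, I or J. No member separated these cell types without overlap, as 10% of genes did.

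**Figure D4:**
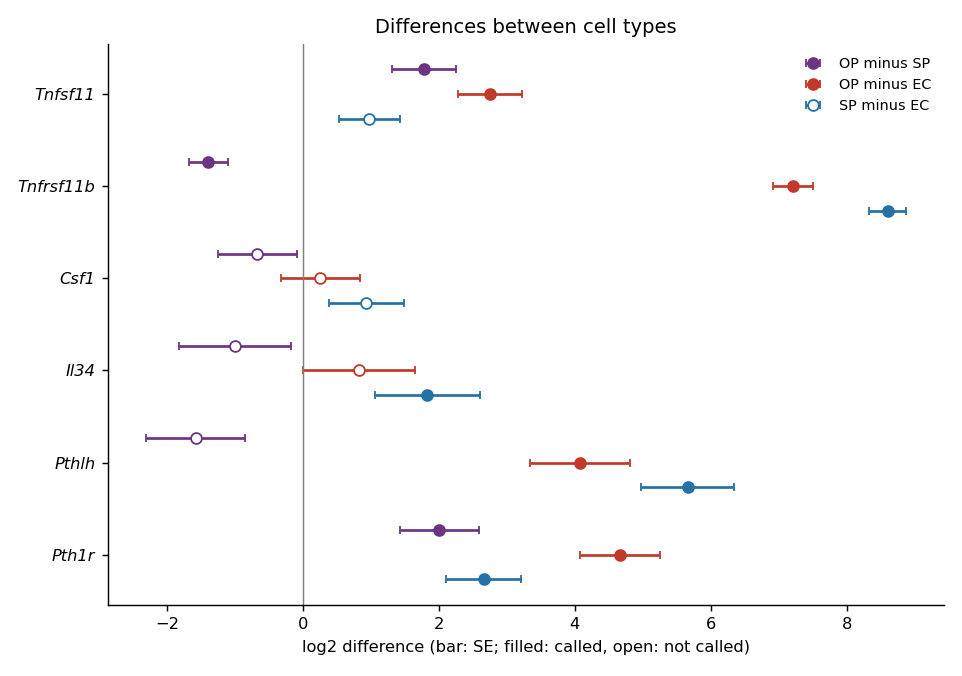
The log2 difference between cell types (circles, filled where it passed the test) with its standard error (bars) for each gene, for osteoprogenitors minus stromal progenitors (OP minus SP), osteoprogenitors minus endothelial cells (OP minus EC) and stromal progenitors minus endothelial cells (SP minus EC). Tnfrsf11b was 7.21 and 8.61 above endothelial cells and fell on the opposite side of 0 from Tnfsf11 and Pth1r between OP and SP.

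The genes whose log2(RPKM + 1) ran most like each member over the 38 libraries were found by Pearson's r among 12683 genes, given as a description since the libraries share 4 cell types. Nearest to Tnfsf11 were Col13a1 (r = 0.85), Ube2ql1 (0.80) and Nckap5 (0.80). Nearest to Tnfrsf11b were Pcolce2 (r = 0.995), Gas1 (0.994) and Cilp (0.993), and Pcolce2 came next for Pthlh (0.89), after Prg4 (0.90) and Dkk3 (0.90). Nearest to Pth1r were the collagen genes Col11a1 (0.91) and Col1a2 (0.90) and the matrix gene Tnc (0.90). Csf1 ran most like Marveld1 (0.87), Fam114a1 and Synpo (0.84 each), and the highest values for Il34 were lower, 0.70 for Ccdc91 and 0.68 for Fhl3 and Vopp1. Among the members the highest r was 0.89, between Tnfrsf11b and Pthlh, and that of Tnfsf11 with Tnfrsf11b was 0.46.

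Receptors and markers of osteoclast precursors were low in most bone-lining libraries. Csf1r, the CSF1 receptor gene of macrophages and osteoclast precursors, was at most 0.421 RPKM in osteoprogenitors and 0.118 RPKM in endothelial cells, and exceeded 1 RPKM in 2 of 10 stromal progenitor libraries, both from myeloma-bearing mice, at most 7.17 RPKM. Of 10 osteoclast markers 5 were in the table, and their sum in osteoprogenitors and stromal progenitors (122 to 667 RPKM) was mostly Ctsk, the cathepsin K gene, at 70.9 to 537 RPKM.

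Further genes of the same signals were taken from lists written by hand, with counts at an unadjusted limma p below 0.05 and by voom-limma on the recovered reads given beside the counts that passed. Of 22 genes of RANK signalling 21 were in the table, and 18 were tested in each comparison within a cell type. None passed in the bone-lining cells, with list medians of 0.02 in endothelial cells, -0.01 in stromal progenitors and -0.32 in osteoprogenitors, beside medians over all genes within 0.07 of 0. At an unadjusted p below 0.05 there was 1 each in endothelial cells and stromal progenitors and 0 in osteoprogenitors, and voom-limma called 0. In myeloma cells 1 gene passed (2 at an unadjusted p below 0.05 and 1 by voom-limma), Nfkbia, the inhibitor that NF-κB itself induces, with 274 ± 60.5 RPKM on bone-lining against 68.4 ± 11.9 RPKM on central marrow cells (SD, n = 5 each, log2 difference 1.97, SE 0.22, adjusted p = 0.000722). The NF-κB subunit gene Relb stood at 10.3 and 3.65 RPKM there and did not pass (1.57, SE 0.59, adjusted p = 0.75). Bone-lining cells were released with collagenase, a step the paper does not describe for central marrow cells. Niche and handling can therefore not be told apart in these differences.

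A list of 16 genes for the control of Tnfsf11 or of the RANKL protein included the protease genes Adam10 and Adam17. All were in the table, and none of the 9 to 14 tested passed within a cell type, by limma, at an unadjusted p below 0.05 (0 genes) or by voom-limma (0 genes), with medians of 0.36 in osteoprogenitors, 0.31 in stromal progenitors, 0.12 in endothelial cells and 0.032 in myeloma cells. Between osteoprogenitors and stromal progenitors 2 were higher and 2 lower of 16 (6 at an unadjusted p below 0.05 and 4 by voom-limma), beside 4.9% of all genes that passed as higher, 3.58% as lower and 17.4% at that unadjusted p. Higher in osteoprogenitors were Vdr, the vitamin D receptor, by 3.95 (SE 0.29, 17.6 ± 6.15 against 0.231 ± 0.712 RPKM), and the osteoblast transcription factor Runx2 by 2.27 (SE 0.52). Lower were Nr3c1, the glucocorticoid receptor, at a log2 difference of -1.58 (SE 0.40), and Il6st, the shared receptor chain of the IL-6 family, at -1.62 (SE 0.50). These 4 genes were named after their values were seen.

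Of 21 genes of PTH receptor signalling 19 were in the table, and 0 of the 13 to 17 tested passed within a cell type (0 by voom-limma, and at an unadjusted p below 0.05 1 in endothelial cells and 3 in myeloma cells), with medians from -0.0092 in osteoprogenitors to 0.24 in stromal progenitors. Ramp2, a partner of calcitonin family receptors and of Pth1r, was far higher in endothelial cells (1042 ± 556 RPKM, SD, n = 10) than in stromal progenitors (85.3 ± 42.9) or osteoprogenitors (26.8 ± 22.2), and was lower in osteoprogenitors than in stromal progenitors (-2.07, SE 0.47, adjusted p = 0.00299). The G protein gene Gnas, which couples Pth1r to cAMP, stood at 186 ± 49.0 RPKM in osteoprogenitors, 232 ± 75.5 in stromal progenitors, 293 ± 239 in endothelial cells and 91.1 ± 14.5 in myeloma cells. In myeloma cells the largest differences between bone lining and marrow in this list were those of the cAMP-inducible genes Nr4a1 (1.998, SE 0.44, adjusted p = 0.11) and Crem (1.22, SE 0.37, adjusted p = 0.49), neither of which passed. Here too niche and handling cannot be told apart. A list of 11 genes for CSF1 receptor ligands and receptors, beside the members, also held related genes such as Csf2ra, Csf2rb and Tyrobp. Of these 11 genes, 7 were in the table and 0 of the 1 to 4 tested passed within a cell type, with 0 at an unadjusted p below 0.05 and 0 by voom-limma. Between osteoprogenitors and stromal progenitors 1 of 6 passed (2 at an unadjusted p below 0.05 and 1 by voom-limma, beside 8.48% and 17.4% of all genes that passed or were at that unadjusted p), Ptprz1, a receptor of IL-34, higher in osteoprogenitors by 1.97 (SE 0.48, 19.6 ± 18.04 against 5.34 ± 4.84 RPKM), named after its values were seen.

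Of 20 other stimulators of osteoclasts 16 were in the table, and 0 of the 3 to 10 tested passed within a cell type (0 by voom-limma, and 0 to 2 per cell type at an unadjusted p below 0.05). Their median log2 difference was 1.54 in endothelial cells (6 genes), 1.03 in stromal progenitors (10), 0.066 in osteoprogenitors (6) and 0.23 in myeloma cells (3). The largest single values were those of Spp1, osteopontin, in endothelial cells (4.45, SE 1.51, adjusted p = 0.87) and of Il6 (3.36, SE 1.23, adjusted p = 0.87) and Ccl2 (2.38, SE 1.05, adjusted p = 0.96) in stromal progenitors. In the endothelial libraries the sum of osteoprogenitor markers ran from 17.4 to 120.0 RPKM in healthy mice and from 21.4 to 96.6 RPKM in myeloma-bearing replicates D, E and G, and stood at 363 RPKM in I and 655 RPKM in J, and its part in the values of Spp1 and of this list was not tested. In osteoprogenitors the largest was Il11, at 0.616 RPKM in myeloma-bearing and 14.9 RPKM in healthy mice (-3.00, SE 0.97, adjusted p = 0.98). The most negative value in stromal progenitors was that of Lif (-1.43, SE 0.77, adjusted p = 0.96). Between osteoprogenitors and stromal progenitors 0 of 16 were higher and 4 lower (6 at an unadjusted p below 0.05 and 3 by voom-limma, beside 4.9% of all genes higher, 3.58% lower and 17.4% at that unadjusted p), the chemokine gene Ccl2 (22.3 ± 36.8 against 773 ± 962 RPKM, -5.30, SE 1.14), Il6, Tnfsf13b and Inhba, which were named after their values were seen.

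Of 15 other inhibitors of osteoclasts 9 were in the table, and 0 of the 3 to 6 tested passed within a cell type (0 by voom-limma, and 0 or 1 per cell type at an unadjusted p below 0.05), with medians of 0.013 in osteoprogenitors, 0.57 in stromal progenitors, 0.31 in endothelial cells and -0.46 in myeloma cells. Sfrp1, a secreted Wnt antagonist, stood at 14.8 RPKM in osteoprogenitors of myeloma-bearing and 0.666 RPKM in those of healthy mice (2.45, SE 1.07, adjusted p = 0.98), the cytokine gene Il18 at 47.1 and 19.1 RPKM (2.49, SE 1.27, adjusted p = 0.98), and Lgals9, galectin-9, at 545 and 220 RPKM in endothelial cells (1.42, SE 0.50, adjusted p = 0.87). On the other side of 0, Il12a stood at 23.5 and 39.9 RPKM in osteoprogenitors (-1.52, SE 1.22) and Cthrc1 at 13.8 and 53.1 RPKM in endothelial cells (-2.29, SE 1.41), and 3 of 6 genes tested in osteoprogenitors and 2 of 4 in endothelial cells had a difference below 0. Between osteoprogenitors and stromal progenitors 3 were higher and 2 lower of 9 (5 at an unadjusted p below 0.05 and 4 by voom-limma), beside the same 4.9%, 3.58% and 17.4% of all genes. The secreted matrix gene Cthrc1 was higher in osteoprogenitors by 5.10 (SE 0.90, 545 ± 368 against 36.9 ± 43.2 RPKM), with Il18 and the cytokine gene Il12a, and Lgals9 and Sema3a were lower, all named after their values were seen.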

How the data were processed

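The authors aligned single-end reads of SmartSeq2 libraries to GRCm38 with STAR 2.4.0 and counted them with featureCounts of Subread 1.4.5-p1. The authors retained genes over 1 CPM in 4 samples or more and deposited RPKM values made with edgeR. Whole reads were recovered from the steps of the deposited RPKM values for 100% of 13260 genes, within 0.0001 of a whole number. Recovery and fits were tested on simulated data.

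Groups follow the deposited labels. Members and gene lists were chosen with earlier results of these data known. limma 3.58.1 in R 4.3.3 (lmFit, eBayes with trend) was fitted on log2(RPKM + 1) over genes above 1 RPKM in at least 4 libraries of the fit. A difference passed where the p adjusted by Benjamini-Hochberg was below 0.1 and the log2 difference exceeded 1 in size. Within-type fits used the libraries compared, and those between types all 38. Ratios were tested by two-sided exact permutation. P-values measure the spread between libraries, which the submitters describe as different mice within a cell type.

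Genes were named by rule: the members; in each list and comparison within a type, those that passed and the largest 2 rises and 2 falls; the highest 3 of each list per cell type; and the nearest 3 by Pearson's r. The text prints only part of the genes that these rules give, and that part was chosen with the values known. Genes named from comparisons between types that lie outside this rule were chosen after their values were seen. Alternatives covered the pseudocount, filter, libraries fitted, trend, weights, scaling, replicate block, voom-limma on recovered reads (scaled by library totals) and leaving out each replicate. Voom-limma over all 38 libraries, scaled by totals or by the trimmed mean of M values, was added after the data were seen.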

Additional observations from a re-analysis of the deposited data

Results flagged for a closer look

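Of 31 groups in which a member exceeded 1 RPKM, 4 had a library whose gap to the nearest other took up more of the group's range on log2(RPKM + 1) than Dixon's 95% limit allows. That limit assumes normally distributed values, and many libraries stood at 0 reads, so no rate by chance is set beside this count. Il34 in both endothelial groups and Pthlh in healthy endothelial cells had 1 library above 1 RPKM. It was the flagged library, so it alone brought the group in. Il34 in endothelial cells gave 2 of them: 31.9 RPKM in healthy replicate C, with the other four healthy libraries at 0, and 71.1 RPKM in myeloma-bearing replicate E, with the others at no more than 1 read. Il34 at 0 in stromal progenitors of myeloma-bearing replicate D was the third, beside 16.1 to 32.6 RPKM in the other four. Pthlh at 58.2 RPKM in endothelial cells of healthy replicate M was the fourth, beside 0.263 RPKM or less in the others. The change with myeloma was not shown to differ between osteoprogenitors and stromal progenitors for the 6 members, or between endothelial cells and stromal progenitors for the 5 members tested (all but Tnfsf11), and that between osteoprogenitors and endothelial cells was not tested.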

How the results depend on the processing

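Of 1195 values of single members under another setting, 1120 kept their direction and side of the threshold, 23 lost a call, 15 gained a call and 37 changed sign, and the cause of these changes was not tested. Members called went from 0 to 1 (Tnfsf11) in osteoprogenitors with all 38 libraries in the fit, from 0 to 1 (Tnfsf11) in stromal progenitors with voom-limma over all 38 libraries scaled by library totals (0 with TMM scaling, chosen after the data were seen), from 3 to 0 between osteoprogenitors and stromal progenitors with healthy mice alone, and from 2 to 1 between endothelial and myeloma cells with myeloma-bearing mice alone. That last count was 1 to 2 without 1 letter, being 1 without C, I or J. Within 1.5 times the reported count, members called ran from 2 to 4 between osteoprogenitors and stromal progenitors (healthy mice alone apart), from 3 to 5 (4 reported) between stromal progenitors and endothelial cells, from 5 to 6 (5) between stromal progenitors and myeloma cells, from 4 to 6 (6) between osteoprogenitors and myeloma cells and from 3 to 4 (4) between osteoprogenitors and endothelial cells. Of the 15 gained calls 11 were of Tnfsf11 in stromal progenitors, against endothelial or myeloma cells. The difference in log2 ratio of Tnfsf11 to Tnfrsf11b was 3.16 to 4.61 in osteoprogenitors and 1.57 to 2.73 in stromal progenitors without 1 library. With a pseudocount of 0.1 it was 5.54 and 4.02, and the linear ratio differed by 0.198 and 0.0201. Its exact permutation p was 0.0571 without any 1 of the healthy osteoprogenitor libraries L, M, N and O, where 0.0286 is the smallest possible, and 0.0714 to 0.111 without any 1 of the healthy stromal progenitor libraries C, L, M, N and O.

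Signs changed for members that passed under neither setting. With voom-limma on recovered reads the log2 difference was -0.27 for Pthlh in stromal progenitors and 0.17 for Csf1 in osteoprogenitors between conditions, and -0.18 for Tnfsf11 between endothelial and myeloma cells. Over all 38 libraries it was -0.28 for Pthlh in stromal progenitors and 0.019 for Csf1 in osteoprogenitors. With TMM scaling of these it was -0.082 for Pthlh in stromal progenitors, and the difference between changes was 0.0027 for Il34 in osteoprogenitors and -0.071 for Tnfrsf11b in endothelial cells, each minus stromal progenitors. With array weights it was -0.074 for Pthlh in stromal progenitors, and the change in osteoprogenitors minus that in stromal progenitors was 0.42 for Il34 and 0.25 for Pth1r, the latter being 0.045 with median-of-ratios scaling. With myeloma-bearing mice alone Csf1 was -0.72 in osteoprogenitors and -0.055 in stromal progenitors, each against endothelial cells. Without 1 replicate, the difference between conditions ranged from -1.11 to 0.027 for Pth1r in endothelial cells, from -0.89 to 0.43 for Csf1 and from -0.64 to 0.88 for Pthlh in stromal progenitors, and from -0.70 to 0.11 for Csf1 in osteoprogenitors. Without a change of sign it ranged, without 1 replicate, from -2.39 to -0.31 for Pthlh, 0.96 to 2.43 for Il34 and 0.14 to 1.08 for Pth1r in osteoprogenitors, and from 1.14 to 2.61 for Il34 and 0.18 to 1.04 for Pth1r in stromal progenitors. Csf1 in osteoprogenitors against endothelial cells ranged from -0.14 to 0.79. The change in osteoprogenitors minus that in stromal progenitors ranged from -0.51 to 0.53 for Csf1, from -3.28 to 0.33 for Pthlh, from -0.68 to 0.76 for Il34 and from -0.25 to 0.66 for Pth1r. For endothelial cells minus stromal progenitors that of Pthlh ranged from -1.87 to 0.25.

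Libraries of a letter deviated together weakly at most (r = -0.043 to 0.115 over genes), which cannot tell if they share mice. With the letter as replicate block, 12 genes passed in myeloma cells in place of 18, and by duplicateCorrelation 1110 in place of 1075 between osteoprogenitors and stromal progenitors, with no member's call changed. Genes passing went from 0 to 150 in endothelial cells, 0 to 28 in stromal progenitors and 1 to 24 in osteoprogenitors with all 38 libraries in the fit, and to 345, 76 and 21 with voom-limma over all 38 (250, 73 and 26 with TMM scaling). In myeloma cells they went from 18 to 1 without the filter, to 2 with voom-limma, to 10 with voom-limma over all 38 under either scaling and to 10 without central marrow replicate D. Between osteoprogenitors and stromal progenitors they went from 1075 to 650 with healthy mice alone. For the change in osteoprogenitors minus that in stromal progenitors they went from 0 to 16 with all 38 libraries and to 10 with voom-limma over all 38 (13 with TMM), and for endothelial cells minus stromal progenitors from 0 to 12 and to 64 (42 with TMM). The groups hold 4 or 5 libraries of 100 cells each, and 4 of the 6 members (Tnfsf11, Il34, Pthlh and Pth1r) were at 0 reads in some bone-lining libraries.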
